A study of Mus musculus with 12 samples.

Results

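Lung metastases that formed in mice whose primary tumour had received gamma rays were compared with unirradiated primary tumours on 2 two-colour Agilent arrays. These were the 2 of the 12 arrays of the series that the labels give as lung metastasis after 8 Gy of gamma rays against the unirradiated primary. Both arrays held the same 2 RNAs with the dyes exchanged. The first array had the metastasis in Cy5 and the primary in Cy3, the second the reverse, and every ratio below has the metastasis on top.

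The tumour was NR-S1, a squamous cell carcinoma that was transplanted into the hind leg of male C3H/HeMsNrs mice. The unirradiated primary was taken 1 week after the tumour had reached 7.5 mm in diameter. For the metastasis, the primary was given 8 Gy at 7.5 mm and lung tumours were taken 2 weeks after that size was reached, so the lung tumours themselves were not the irradiated site and the 2 tissues differed in age as well as in site. Per the series' design text, the primaries grew in other mice than those that gave the metastases. Both RNAs carry the label clone 1, and neither the number of animals behind an RNA nor any pooling is given in the sources used here. Tumour cells were cut out of sections by laser microdissection, their RNA was purified with RNeasy Micro columns, and it was amplified linearly before labelling. With 1 RNA on each side, the differences have no replicate check and were not tested across animals. Errors are the SD over the 2 dye orientations (n = 2 arrays) and cover array and dye error alone. In RNA of dissected tissue, fewer cells of a type and less RNA per cell cannot be told apart.

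The lung is built from alveoli, where type 1 cells form the gas exchange surface and type 2 cells make surfactant, and from airways lined by secretory club cells and ciliated cells. Tumour cells that reach it lodge among capillaries and resident macrophages. Organised clusters of B and T cells can form near its airways, guided by chemokines that otherwise shape lymph nodes. Interferons switch on a shared programme of antiviral enzymes, GTPases and antigen presentation genes in almost any cell they reach. Low oxygen switches on a separate programme through the transcription factor HIF, which raises glucose uptake and glycolysis.

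Of 17664 measured genes, that is genes whose probe Feature Extraction marked as well above its background on both arrays for one or the other RNA, 1558 were called higher in the metastasis (8.82%) and 195 lower (1.10%). A gene was called where its ratio was at least 2-fold, a log2 ratio of 1, in the same direction in both orientations. The median log2 ratio over all measured genes was 0.062, and the median SD over the 2 orientations was 0.113 (95th percentile 0.356). When 1 of the arrays was left unturned, 1 gene passed the same rule. Large differences were mostly in one direction: 554 of the genes called higher and 48 of those called lower differed by at least 4-fold, 160 and 15 by at least 8-fold, and 53 and 5 by at least 16-fold. Agilent's processed log ratios gave 2595 genes higher and 783 lower. The arrays themselves were alike, with 58.7% to 68.8% of spots per channel well above background, 33 and 38 spots flagged and none saturated. The number of arrays limits the precision.

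**Figure D1:**
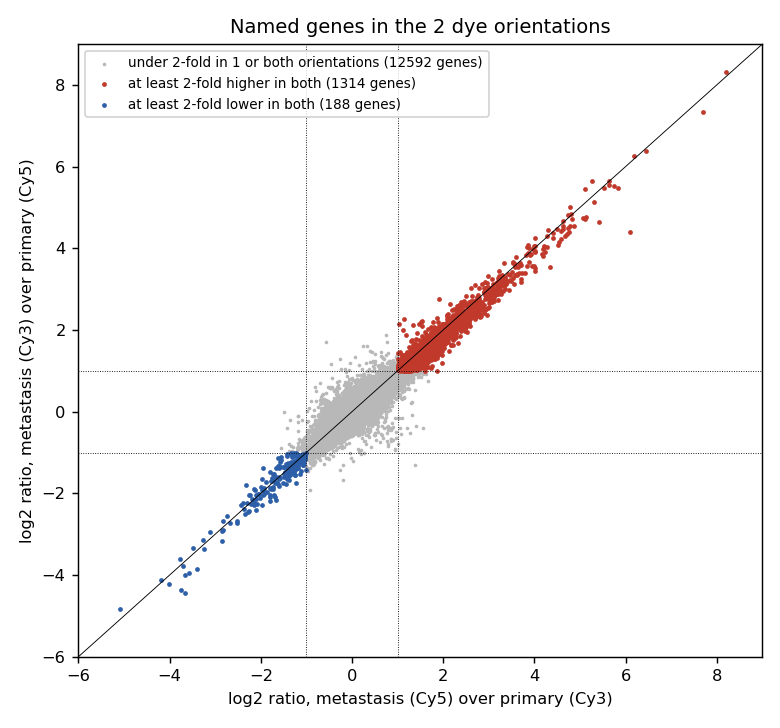
The log2 ratio of each named measured gene with the metastasis in Cy5 (horizontal axis) is plotted against its ratio with the metastasis in Cy3 (vertical axis), with dotted lines at 2-fold. The 1314 named genes called higher and 188 called lower lie along the diagonal, and Sftpc, with ratios of 6.10 and 4.39, is the called gene farthest below it on the right.

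The labelled identity of both RNAs was checked against markers of squamous epithelium. Krt5, a keratin of basal squamous cells, gave signals of 205700 against 139700 on the first array and 144400 against 193100 on the second. Trp63, the transcription factor that specifies stratified epithelium, gave 11640 against 11530 and 12080 against 11520. Neither differed by 2-fold: the log2 ratios were 0.07 ± 0.69 and 0.04 ± 0.04, and that of the basal keratin Krt14 was 0.00 ± 1.13. The large SDs of Krt5 and Krt14 come from ratios of opposite sign in the 2 orientations, which were 0.56 and -0.42 for Krt5. Of 49 measured keratinocyte and squamous genes, 12 were higher and none lower, and their median of 0.25 ranged from -0.06 to 0.42 over the settings tried. Both RNAs thus held strong squamous signal, and the summed signal of the list was 1726819 and 1499552 in the metastasis and 1275033 and 1525723 in the primary.

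Beside these, lung and blood cell genes set the metastasis apart. Among the 20 largest ratios were surfactant genes, secretoglobins, B cell genes, the alveolar macrophage receptor Marco and the type 1 cell gene Clic5, beside the complement gene Hc, the chemokine Ccl19, the calcium-binding protein gene S100g and Sprr2d, a cornified envelope protein. S100g was at least 37.5-fold higher. Such a bound is given where the primary was not well above background for the gene. It sets the metastasis against the primary's own signal or the lowest signal of probes well above background, whichever was higher. At the other end the 20 smallest ratios belonged to muscle genes apart from Lrrc15, Slc7a3, Ces1g and Thbs4. They included desmin, Des, at -2.75 ± 0.11 and creatine kinase, Ckm, at -2.65 ± 0.12. The primary gave no signal well above background on either array for 150 of the genes called higher, and the metastasis for 10 of those called lower.

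**Figure D2:**
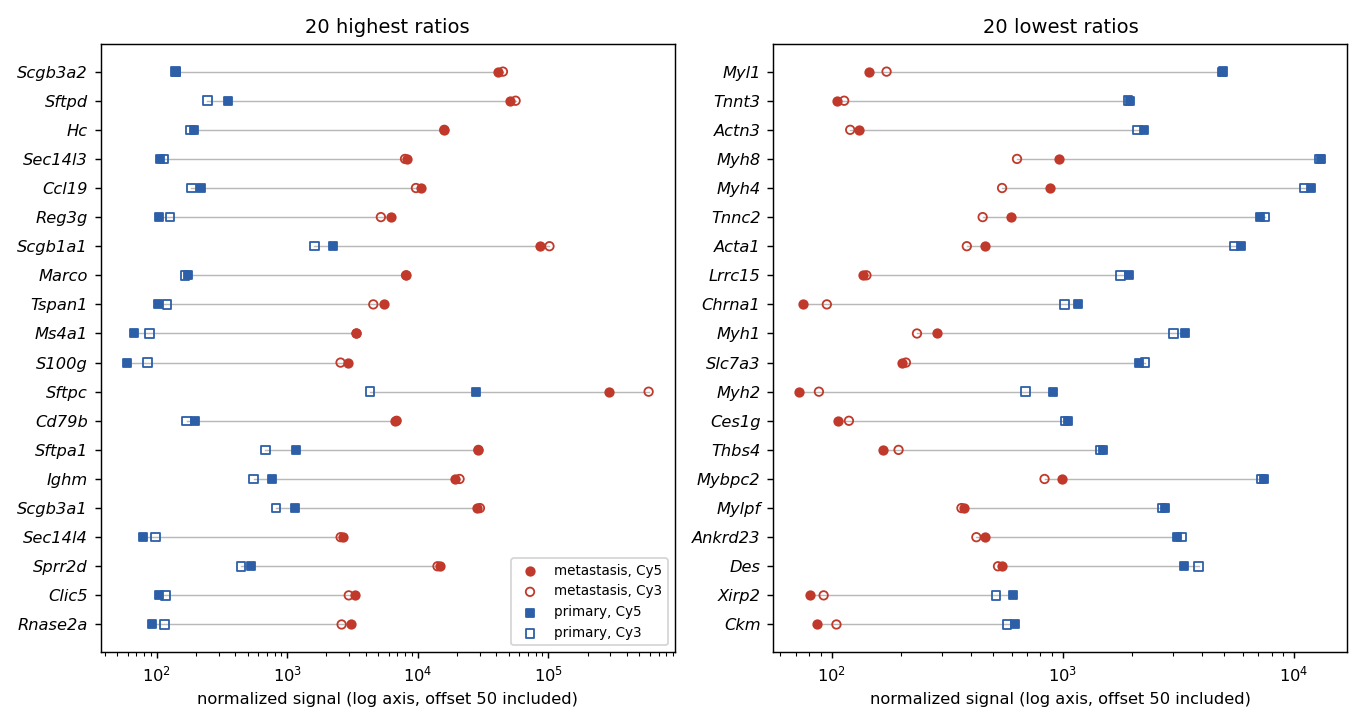
Normalized signal (log axis) of the 20 named genes with the highest and the 20 with the lowest mean ratio, in the metastasis (circles) and the unirradiated primary (squares), with Cy5 filled and Cy3 open and a grey line from the lowest to the highest of the 4 values. The 40 genes were picked for the size of their ratios, so that circles and squares do not overlap follows from the choice. Sftpc has the widest spread between dyes, with 294800 against 4305 and 587700 against 28060 for metastasis against primary.

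Genes of alveolar type 2 cells, which secrete surfactant, were higher in 11 of 14 cases with a median log2 ratio of 3.46. Sftpd, a surfactant collectin that binds microbes, gave 51130 against 245 on the first array and 56230 against 350.4 on the second, a 183-fold difference. Sftpa1, its relative in the surfactant film, gave 28890 against 679.2 and 29190 against 1174, and its ratio was 5.02 ± 0.55. Sftpc, the hydrophobic surfactant protein made by type 2 cells alone, stood at 5.24 ± 1.21, and its orientations differed more than those of any other gene called. The aspartic protease Napsa, which processes surfactant proteins, was at 4.32 ± 0.11, the lung chemokine Cxcl15 at 4.14 ± 0.10 (5.70 with its other probe) and the lysozyme Lyz2, shared with macrophages, at 3.94 ± 0.58 (2.59 with its other probe). The ETS factor Etv5 lay on the other side of 0 at -0.83 ± 0.03 (-1.40 with Agilent's processed log ratios), and the lipid transporter Abca3, which loads lamellar bodies, stood at 0.84 ± 0.29 with its other probe at 1.98. So the secreted products of type 2 cells differed most, and 3 genes of the list did not pass the rule. Every member of this list was well above background in the primary on at least 1 array here. On the arrays that set the same primary RNA against the gamma-irradiated and carbon-irradiated primaries, 8 and 9 of the 14 were measured. That primary signal was thus not seen for every member on arrays without a metastasis, for which the reason was not tested. The summed signal ran from 51399 to 105884 in the primary against 735287 and 1193848 in the metastasis.

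Type 1 cell genes were higher in 7 of 12 cases (median 1.40, or 1.12 with median centring and 0.93 for the mean of all probes). The receptor Ager, the most used marker of type 1 cells, gave 4515 against 187.3 on the first array and 5560 against 296.4 on the second, and the chloride channel protein Clic5 gave 3285 against 117.2 and 2963 against 103.3. Their ratios were 4.41 ± 0.26 and 4.83 ± 0.02, with 3.24 at the other Clic5 probe. The matrix proteoglycan Spock2 stood at 3.40 ± 0.04 (0.81 to 1.99 with other probes), the receptor Gprc5a at 2.26 ± 0.10, the semaphorin Sema3e at 1.68 ± 0.24 (0.05 to 0.77 with other probes), Hopx at 1.65 ± 0.01 and Rtkn2 at 1.15 ± 0.11. Rtkn2 fell under 2-fold with median centring (0.97), and Sema3e with the mean of its probes (0.83). The other 5 did not pass the rule and were well above background in both RNAs: the water channel Aqp5 stood at -0.35 ± 0.24, caveolin Cav1 at -0.12 ± 0.17, podoplanin Pdpn at -0.09 ± 0.26, Emp2 at 0.31 ± 0.23 and Vegfa at -0.98 ± 0.18. With them in it the list's summed signal overlapped, at 176820 and 158866 in the metastasis and 162458 and 162335 in the primary.

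Secretory cells of the airways gave the strongest list. Of 22 measured club and secretory airway genes, 20 were higher, with a median of 4.48, and 2 of the 22 were measured through the metastasis alone. Scgb3a2, a small secreted protein of club cells, gave 41030 against 139.6 on the first array and 44980 against 141.7 on the second, the highest ratio of any named gene. Scgb1a1, the main club cell protein, gave 86870 against 1616 and 102200 against 2231, a 49.6-fold difference from a primary signal that was itself well above background. Reg3g, an antimicrobial lectin of mucosal surfaces, gave 6291 against 126 and 5221 against 104.7. The lipid carrier Sec14l3 was at 6.21 ± 0.05 with its other probes at 1.54 to 3.38 (3.59 for the mean of its probes), the tetraspanin Tspan1 at 5.51 ± 0.03 (3.85 with another probe) and Scgb3a1 at 4.92 ± 0.28. The goblet cell factor Spdef was level at -0.08 ± 0.02, and the glutathione transferase Gsta3 stood at 0.49 ± 0.11. The list's summed signal was 373574 and 411932 in the metastasis and 46153 and 54775 in the primary, with no overlap.

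Ciliated cells, which move the mucus that club and goblet cells make, were represented by 28 measured genes of 30 on the array, 8 of them measured through the metastasis alone. Of the 28, 17 were higher and none lower, with a median of 1.32 (2.68 with Agilent's processed log ratios). Dynlrb2, a light chain of the dynein motor, gave 1676 against 161 on the first array and 1416 against 156 on the second. Foxj1, the transcription factor that commits cells to making motile cilia, gave 802 against 113.5 and 738.6 against 125.1. Their ratios were 3.28 ± 0.14 and 2.69 ± 0.18. Lrrc23 of the radial spoke stood at 3.08 ± 0.27, Tppp3 at 2.96 ± 0.33 and the ciliary protein gene Cfap126 at 2.50 ± 0.17. The tubulin Tuba1a, used by dividing cells too, stood at 0.26 ± 0.30 and Rsph1 at 0.20 ± 0.12. Summed over the list, the signal was 43364 and 47352 in the metastasis and 30076 and 27529 in the primary.

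Regulators and transport genes of the lung followed. Of 21 measured transcription factors of lung lineages, 3 of them measured through the metastasis alone, 7 were higher and 1 lower, with a median of 0.46 (0.87 with Agilent's processed log ratios). Foxa2, a factor of foregut endoderm, gave 2205 against 141.6 on the first array and 2083 against 132.3 on the second, a log2 ratio of 3.97 ± 0.01. Elf5 stood at 3.24 ± 0.01 and Nkx2-1, the factor that defines lung epithelium, at 2.33 ± 0.14, for both of which the primary was above background on 1 array. With Agilent's processed log ratios, which add no offset to dim signals, they stood at 5.62 and 4.17. Gata6 stood at 1.94 ± 0.23 (0.31 with another probe), Cebpa at 1.59 ± 0.79 and Etv4, an ETS factor that growth factor signalling induces, at -1.16 ± 0.15 (-0.98, no longer called, with scaling between arrays). Of 22 channels and transporters of airway and alveolus, 4 of them measured through the metastasis alone, 12 were higher (median 1.71, but 0.64 with no filter on dim probes and 0.52 with both RNAs required above background). The 2 sodium channel subunits with the largest ratios were Scnn1a at 4.29 ± 0.01 and Scnn1g at 3.60 ± 0.02, the latter with the primary above background on 1 array, and at 5.70 with Agilent's processed log ratios. Xenobiotic enzymes, many of which club cells make, were higher in 19 of 35 cases, 6 of the 35 measured through the metastasis alone, with a median of 1.31 (2.22 with Agilent's processed log ratios). Among them were Cyp2f2 at 4.67 ± 0.17, Aldh1a1 at 4.58 ± 0.26 and Cyp2a5, which was at least 15.2-fold higher. The esterase Ces1g was the 1 enzyme of the list that was lower, at -3.21 ± 0.09 (-2.41 with its other probe and -4.85 with Agilent's processed log ratios).

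Vessels and stroma differed to a smaller degree. Endothelial genes were higher in 18 of 26 cases (median 1.59), all of them above background in the primary. Calcrl, a receptor for adrenomedullin, gave 6819 against 449.1 on the first array and 6809 against 468.1 on the second, although its other probe had a ratio of 0.41. Von Willebrand factor, Vwf, a clotting protein stored in endothelium, gave 4937 against 372.8 and 4572 against 431.8. Over the list the signals summed to 87252 and 89706 in the metastasis and 35737 and 35189 in the primary. The hyaluronan receptor Lyve1 stood at 2.69 ± 0.22 (1.54 with its other probe), the carbonic anhydrase Car4 of lung capillaries at 2.17 ± 0.01 (3.44 with Agilent's processed log ratios), Ramp2, which pairs with Calcrl, at 2.12 ± 0.01 and Icam2 at 2.06 ± 0.20. Ednrb, the endothelin B receptor, lay below 0 at -1.08 ± 0.32 without passing the rule. Of 24 fibroblast genes 7 were higher and 2 lower, and their median of 0.33 became -0.11 with median centring. Inmt stood at 3.77 ± 0.29, Mgp at 2.73 ± 0.18 and Dcn at 2.05 ± 0.06, while Fap, a protease of activated fibroblasts in tumours, stood at -1.34 ± 0.12 (-2.29 with Agilent's processed log ratios) and Col13a1 at -1.54 ± 0.07. Red blood cell genes were higher in 3 of 5 cases, with Hbb-bt at 3.98 ± 0.16, Hba-a1 at 3.03 ± 0.22 and Alas2 at 2.06 ± 0.02. Slc4a1 stood at 0.53 ± 0.07, with the primary above background on 1 array, and Car1 at -0.06 ± 0.05. The signals summed to 58685 and 68516 in the metastasis and 5126 and 5908 in the primary.

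Heart muscle genes split. The atrial light chain Myl7 gave 1453 against 219.7 on the first array and 1144 against 230.7 on the second, a ratio of 2.52 ± 0.29, and the troponin Tnni3 stood at 1.88 ± 0.06 (0.82 with its other probe). The atrial hormone gene Nppa was at 1.59 ± 0.09 and the myosin Myh6 at 1.52 ± 0.05, again with the primary above background on 1 array. With Agilent's processed log ratios Tnni3, Nppa and Myh6 stood at 3.38, 3.04 and 3.22, and the mean of its probes put Nppa at 1.0, where it was no longer called. Actc1 (-0.74 ± 0.15), Sln (-0.40 ± 0.20), Tnnt2 (-0.33 ± 0.08) and Myl4 (-0.12 ± 0.08), which developing or regenerating limb muscle also uses, lay below 0, and Pln at 0.20 was not well above background in the primary. Of 8 measured mesothelial genes, which mark the lining of the lung surface, 1 was higher: Gpm6a, by at least 4.15-fold, with its other probe at a log2 ratio of 0.75. Msln stood at 0.62 ± 0.16, Aldh1a2 at -0.61 ± 0.20 and Bnc1 at -0.29 ± 0.02, and Wt1, Lrrn4, Upk3b and Upk1b were not well above background in the primary and under 2-fold in at least 1 orientation. The summed signals were 17368 and 18286 in the metastasis against 13814 and 13251 in the primary for the mesothelial list, and 8009 and 7318 against 7392 and 7926 for the heart muscle list.

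Lymphocyte genes were a second strong element. Of 21 measured B cell genes, 17 were higher with a median of 2.05, and 7 of the 21 were measured through the metastasis alone. Cd79b, a signalling chain of the B cell receptor, gave 6753 against 169.4 on the first array and 6899 against 196.8 on the second. Ms4a1, which encodes CD20, gave 3361 against 87.74 and 3399 against 67.52, with the primary above background on 1 array, and its other probe had a ratio of 4.48. The survival factor receptor Tnfrsf13c was at least 9.62-fold higher, the follicle homing receptor Cxcr5 stood at 3.15 ± 0.09, the inhibitory receptor Cd22 at 3.05 ± 0.18 (0.21 with another probe) and the complement receptor Cr2, with the primary above background on 1 array, at 2.55 ± 0.14 (4.50 with Agilent's processed log ratios). The partner chain Cd79a, not well above background in the primary, stood at 0.47 ± 0.11 (2.75 with Agilent's processed log ratios), and Ebf1, an early B cell factor, at 0.22 ± 0.23. The summed signal of the B cell list was 46997 and 47394 in the metastasis and 9841 and 10162 in the primary. Of 12 measured plasma cell and immunoglobulin genes 6 were higher, 2 of the 12 measured through the metastasis alone, with a median of 1.23 (2.57 with Agilent's processed log ratios). Ighm, the IgM heavy chain, gave 19470 against 553.3 and 20920 against 769.2, Ighg1 stood at 3.35 ± 0.21, the joining chain Jchain at 3.75 ± 0.27 and Mzb1, a chaperone of plasma cells, at 3.26 ± 0.17. The plasma cell surface gene Sdc1, which squamous epithelium also makes, did not differ by 2-fold, at -0.09 ± 0.12, and Prdm1 stood at 0.21 ± 0.22, Eaf2 at 0.35 ± 0.29 and Xbp1 at 0.63 ± 0.14. Tnfrsf17 and Irf4 were not well above background in the primary and were not called.

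T cell genes were higher in 15 of 26 cases (median 1.95, or 3.01 with Agilent's processed log ratios), and 5 of the 26 were measured through the metastasis alone. The receptor chain Cd3g stood at 3.82 ± 0.01, with the primary above background on 1 array (5.79 with Agilent's processed log ratios). Cd5, which tunes the T cell receptor, gave 1931 against 155.3 and 1709 against 147.7. Its relative Cd6 gave 2124 against 164.5 and 1992 against 160.5, although its other probe had a ratio of 0.40. Cd3d stood at 3.47 ± 0.32 and the kinase Lck at 3.22 ± 0.33. Thy1 stood at -0.10 ± 0.28 (0.68 with its other probe), so not every T cell probe differed. T cell signals summed to 21889 and 20039 in the metastasis and 9006 and 10004 in the primary. Cytotoxic genes were higher in 8 of 18 cases, and 8 of the 18 were measured through the metastasis alone. Their median of 0.86 was 3.20 on Agilent's own processed log ratios, and 2.90 over genes above background in each RNA. They were led by the chemokine Ccl5 at 4.01 ± 0.05, Nkg7 at 2.97 ± 0.20 (1.82 with its other probe) and Klrd1 at 2.91 ± 0.06.

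Genes that organise lymphoid tissue stood out among these. Of 19 on the array 17 were measured and 11 were higher, with a median of 2.43 (1.26 with no filter on dim probes). Ccl19, the chemokine that draws naive T cells and dendritic cells into lymph nodes, gave 10580 against 184.6 on the first array and 9695 against 217.2 on the second. Glycam1, a sugar-bearing protein of high endothelial venules, gave 4887 against 186.5 on the first array and 3958 against 192.7 on the second. Cxcl13, which attracts B cells into follicles, gave 2465 against 136.1 on the first array and 2182 against 139 on the second. The log2 ratios of these 3 genes were 5.66 ± 0.26, 4.54 ± 0.25 and 4.08 ± 0.15. The cytokine Ltb stood at 3.60 ± 0.29 and the homing receptor Cxcr5 at 3.15. The addressin sulphotransferase Chst4 (-0.21 ± 0.13) and the survival cytokine Il7 (-0.04 ± 0.22) did not differ by 2-fold. The summed signal of the list was 59526 and 58520 in the metastasis and 12775 and 12628 in the primary.

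Myeloid cells were represented by several lists. Neutrophil genes were higher in 12 of 17 cases (median 1.40, or 2.15 with Agilent's processed log ratios). S100a9, 1 of the 2 subunits of calprotectin, gave 169900 against 9453 and 306900 against 21290, and S100a8, the other, gave 28260 against 2476 and 29940 against 2793. Retnlg stood at 3.27 ± 0.04, the iron-binding protein gene Lcn2, which epithelium also makes, at 3.11 ± 0.19, the collagenase Mmp8 at 2.55 ± 0.11 (4.26 with Agilent's processed log ratios) and lactoferrin Ltf at 2.46 ± 0.02. The gelatinase Mmp9 stood at 0.12 ± 0.23 and myeloperoxidase Mpo at 0.44 ± 0.16. The summed signal of the neutrophil list was 226566 and 365298 in the metastasis and 20198 and 32348 in the primary. Alveolar macrophage genes were higher in 13 of 18 cases (median 1.49), 2 of the 18 measured through the metastasis alone. Marco, a scavenger receptor of these cells, gave 8132 against 164.4 and 8138 against 175.1. The ribonucleases Ear1 and Ear10 stood at 4.30 ± 0.31 and 3.23 ± 0.06, and Fabp1 and Cidec were at least 16.2-fold and 7.47-fold higher. The broader list of monocyte and macrophage genes had 10 of 24 higher and a median of 0.96, or 0.61 after median centring. There Lyz1 was highest at 3.97 ± 0.05 and Cd163 (-0.36 ± 0.00) and Cx3cr1 (-0.22 ± 0.05) lay below 0. The summed signals were 137083 and 134249 in the metastasis against 94605 and 93513 in the primary for the alveolar macrophage list, and 403711 and 575825 against 55283 and 80368 for the broader one.

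Of 14 measured genes linked to alternative activation, which the cytokines IL-4 and IL-13 induce, 8 were higher and none lower, with a median of 1.44. Retnla, a secreted resistin-like protein that airway epithelium also makes, gave 25300 against 1017 on the first array and 27430 against 1168 on the second. Chil4 stood at 3.16 ± 0.11, with the primary above background on 1 array, Chil3 at 2.41 ± 0.10, the lectin Clec10a at 2.23 ± 0.36, the chemokine Ccl17 at 1.63 ± 0.26 and arginase, Arg1, at 1.49 ± 0.13. The receptor Il4ra itself (-0.01 ± 0.20) and Fn1 (-0.32 ± 0.12) did not differ by 2-fold. Eosinophils and mast cells showed no common direction: Rnase2a, an eosinophil-associated ribonuclease, stood at 4.79 ± 0.06 and the growth factor receptor Kit at 2.34 ± 0.13, whereas the mast cell tryptase Tpsb2 lay below 0 at -0.66 ± 0.17 without passing the rule and its relative Tpsab1 was not well above background in the metastasis, and 4 of the 13 measured genes were higher.

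Of 11 measured fat cell genes 8 were higher and 2 of the 11 were measured through the metastasis alone, with a median of 1.47 (2.77 with Agilent's processed log ratios). Several of them are not restricted to fat: the fatty acid transporter Cd36, which macrophages and capillaries also make, gave 2156 against 185.7 on the first array and 2036 against 159.8 on the second, and the lipase Lpl stood at 3.44 ± 0.37 (2.27 with its other probe) and the desaturase Scd1, which type 2 cells use, at 2.78 ± 0.01. Among genes closer to fat cells themselves, the fat hormone Adipoq was at least 2.78-fold higher, the lipid droplet protein Plin4 stood at 1.16 ± 0.03, the fatty acid carrier Fabp4 at 1.09 ± 0.02 with other probes at 0.21 to 1.02, and Plin1 (0.75 ± 0.03, with the primary above background on 1 array) and Car3 (0.32 ± 0.13) were not called. The signals summed to 37526 and 38112 in the metastasis and 7700 and 8220 in the primary.

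**Figure D3:**
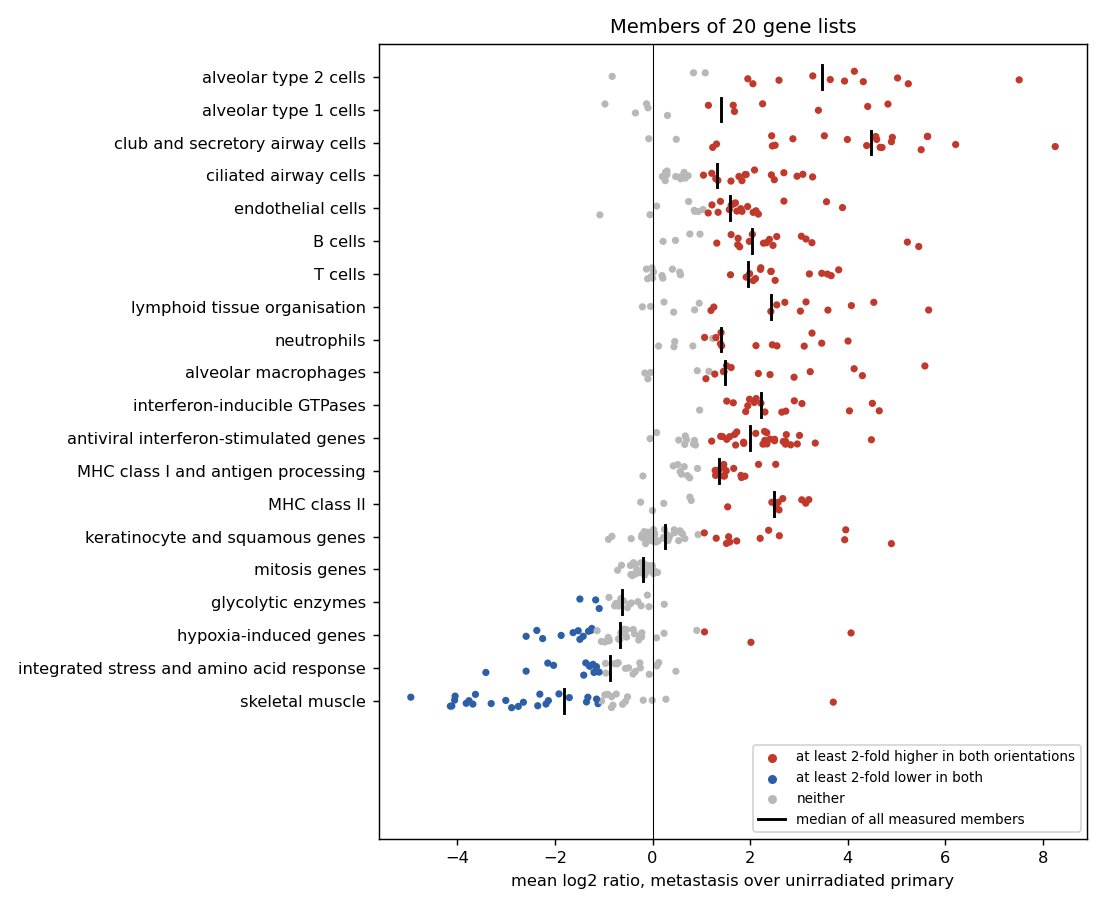
Each point is a named member of 1 of 20 gene lists at its mean log2 ratio of metastasis over unirradiated primary, coloured by whether it passed 2-fold in both dye orientations, and the black bar is the median of all measured members. Medians run from 4.48 for club and secretory airway genes to -1.81 for skeletal muscle genes, where Myh7 is the 1 gene on the far right.

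Interferon-induced genes differed as a body. Of 17 measured interferon-inducible GTPases, which attack the vacuoles that shelter intracellular microbes, 16 were higher (median 2.22). Measured through the metastasis alone were 2 of the 17. Of 38 antiviral interferon-stimulated genes 29 were higher (median 1.99), with none lower in either list. The promoters of 4 genes from these lists are shown because the response is known to run through a short element near the start site. Only windows with a match were printed, so that all 4 hold the element was fixed by that choice. Usp18 was also looked up and gave no window with a match. The windows run from 250 bases before to 50 bases after the start that RefSeq gives on mouse assembly GRCm38.p6, read 5′ to 3′ on the gene's strand, and capitals mark matches to TTTC, any 2 bases and TTTC again, the core of the interferon-stimulated response element, on either strand with overlaps counted. The Igtp window is chr11:58199306-58199605 on the plus strand, that of Tgtp1 chr11:48992197-48992496 on the minus strand, that of Ifit1 chr19:34640639-34640938 on the plus strand and that of Isg15 chr4:156200769-156201068 on the minus strand.
Igtp: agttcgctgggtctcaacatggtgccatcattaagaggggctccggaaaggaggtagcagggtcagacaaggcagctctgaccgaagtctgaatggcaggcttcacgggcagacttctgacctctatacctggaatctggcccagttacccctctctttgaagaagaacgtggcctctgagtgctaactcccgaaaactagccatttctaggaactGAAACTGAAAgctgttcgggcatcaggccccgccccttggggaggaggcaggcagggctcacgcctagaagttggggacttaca
Tgtp1: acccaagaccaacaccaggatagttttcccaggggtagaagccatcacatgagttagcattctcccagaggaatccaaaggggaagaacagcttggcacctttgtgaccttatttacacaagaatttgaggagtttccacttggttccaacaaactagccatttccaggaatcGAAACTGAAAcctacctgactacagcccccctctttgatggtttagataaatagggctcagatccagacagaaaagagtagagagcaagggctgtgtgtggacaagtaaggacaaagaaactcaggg
Ifit1: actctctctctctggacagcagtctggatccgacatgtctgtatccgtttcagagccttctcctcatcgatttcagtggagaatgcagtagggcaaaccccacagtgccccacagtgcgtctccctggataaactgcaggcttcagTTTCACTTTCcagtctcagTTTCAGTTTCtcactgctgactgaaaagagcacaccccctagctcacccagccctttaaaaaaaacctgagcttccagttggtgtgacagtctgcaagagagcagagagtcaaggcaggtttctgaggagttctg
Isg15: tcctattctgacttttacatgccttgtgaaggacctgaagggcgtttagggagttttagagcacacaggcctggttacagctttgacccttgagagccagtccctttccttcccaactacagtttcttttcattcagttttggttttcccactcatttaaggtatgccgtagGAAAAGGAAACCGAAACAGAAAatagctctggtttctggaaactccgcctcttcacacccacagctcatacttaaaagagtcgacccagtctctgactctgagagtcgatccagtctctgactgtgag

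The first base of the match lay at -34 in Igtp and -77 in Tgtp1, at -104 and -85 in Ifit1, and at -78, -72 and -66, as an overlapping run, in Isg15. Windows were given for 9 of the GTPase genes, and 8 of their 10 windows (80%) held the motif. For the antiviral genes 15 of 33 windows (45.5%) held it. Windows were given for 980 of the 1314 named genes called higher, and 87 of 1254 (6.94%) held it. For 141 of the 188 named genes called lower it was 5 of 168 (2.98%). Of all 32851 windows given, 1131 (3.44%) held it. A match describes these letters and says nothing of binding.

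Igtp gave 6563 against 405.8 on the first array and 6539 against 392.9 on the second, a log2 ratio of 4.04 ± 0.03. Iigp1, a related GTPase, gave 2888 against 116.9 and 2633 against 103.6, and Tgtp1 gave 3900 against 163.1 and 3705 against 171.6, with its other probe at a ratio of 0.42. Iigp1 stood at 4.65 ± 0.03 and Tgtp1 at 4.51 ± 0.11 (2.46 for the mean of its probes). Ifi47 followed at 3.06 ± 0.05, Gbp3 at 2.91 ± 0.02 and Irgm2 at 2.73 ± 0.31. Among the antiviral genes, Ifi27l2a, a mitochondrial protein gene, gave 24230 against 946.3 and 25310 against 1292, Rtp4, a chaperone of receptors, stood at 3.34 ± 0.17, the interferon brake Usp18 at 3.01 ± 0.17, Ifit1, which binds foreign RNA, at 2.97 ± 0.09, Oasl2 at 2.83 ± 0.25 and Oas2 at 2.74 ± 0.08. The ubiquitin-like modifier Isg15 gave 3675 against 719.4 and 3704 against 776.7, a ratio of 2.30 ± 0.07; it is named for its promoter, as are Car9 and Egln3 further on, after its values were seen. The membrane proteins Ifitm2 (-0.05 ± 0.26) and Ifitm3 (0.08 ± 0.10), did not differ by 2-fold and stood at -0.47 and -0.46 with median centring. Among the regulators, 8 of 21 were higher, with Irf7 at 2.39 ± 0.33 and Stat2 at 1.71 ± 0.09.

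Antigen presentation genes were higher in both classes. Of 23 genes of MHC class I and its peptide supply 14 were higher (median 1.36, or 0.87 with median centring), led by the immunoproteasome subunits Psmb8 (2.53 ± 0.15) and Psmb9 (2.17 ± 0.12). B2m, the chain shared by all class I molecules, gave 39820 against 11270 and 46840 against 13210, and H2-K1 stood at 1.81 ± 0.04. Class I genes are close copies of one another, so probes of H2-K1 and its relatives may share signal. Of 14 class II genes 9 were higher, with a median of 2.49. The class II activator Ciita gave 2107 against 248.3 on the first array and 2220 against 271.1 on the second, H2-DMb1 stood at 3.20 ± 0.18, the invariant chain Cd74 at 3.14 ± 0.14 and H2-Ab1 at 2.67 ± 0.42. The general factors Rfxap (-0.24 ± 0.07) and Rfxank (0.00 ± 0.31) did not differ by 2-fold. Among complement genes 11 of 22 were higher, led by Hc, the gene of C5, at 6.41 ± 0.06 and the adipsin gene Cfd at 4.55 ± 0.10. The complement median was 1.30, and 0.58 with no filter on dim probes, and 2 of the 22 were measured through the metastasis alone. Among chemokines 14 of 33 were higher and none lower, 2 of the 33 measured through the metastasis alone. Ccl6 stood at 4.48 ± 0.01 and Cxcl1, which draws neutrophils, at -1.05 ± 0.32.

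Among the 12 squamous genes called higher, the largest ratios were those of Sprr2d, Cnfn and Crct1. Sprr2d, a precursor of the cornified envelope, gave 14740 against 442.1 on the first array and 14180 against 532.4 on the second, Cnfn gave 4160 against 256 and 4337 against 290.7, and Crct1 stood at 3.94 ± 0.09. Calml3 was at 2.60 ± 0.06, Krt7, a keratin of simple epithelia that lung also expresses, at 2.38 ± 0.09 and Sprr1a at 2.21 ± 0.03. The other 6, Krt15 among them, had smaller ratios. The simple keratins Krt18 (-0.91 ± 0.20) and Krt8 (-0.83 ± 0.41) lay on the other side of 0 without passing the rule (-1.48 and -1.43 with median centring). Of 8 basal airway genes 3 were also higher. Dapl1 stood at 2.05 ± 0.02 (3.35 with Agilent's processed log ratios), Krt15 at 1.73 ± 0.34 and Ngfr at 1.68 ± 0.16 (0.81, no longer called, for the mean of its probes), while Aqp3 stood at 0.62 ± 0.00 and Snai2 at -0.48 ± 0.11. Of 30 junction genes 8 were higher, with the lung claudin Cldn18 highest at 4.15 ± 0.17, and 2 of the 30 were measured through the metastasis alone.

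Genes of cell division and DNA damage gave no calls. None of 30 mitosis genes, 33 replication genes, 26 repair genes or 28 p53 targets passed 2-fold in both orientations, with medians of -0.19, -0.28, -0.09 and 0.02. The shares over all measured genes were 8.82% higher and 1.10% lower, so counts of 0 on the lower side are near the share. The proliferation gene Mki67 gave 18410 against 17750 on the first array and 19550 against 19230 on the second, and the p53 target Cdkn1a, which halts the cell cycle, gave 8562 against 8580 and 8346 against 8679. Values of the 2 RNAs overlapped for Mki67, and Cdkn1a, named after its values were seen, had a ratio of -0.03 ± 0.04. With median centring the mitosis and replication medians became -0.60 and -0.65, a scaling that moved the median of all measured genes from 0.062 to -0.103. Cytosolic ribosomal protein genes show the size of dye error in bright spots: none of 35 was called, and their median was 0.56 with the metastasis in Cy5 and -0.44 with it in Cy3.

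Protease and inhibitor genes were higher in 12 of 28 cases and lower in 1 (median 1.04, or 0.53 with median centring). Serpinb11, an intracellular serpin of squamous epithelium, gave 1067 against 112.4 and 917 against 106.6, and the epithelial inhibitor Wfdc18 stood at 3.12 ± 0.08, the interferon-induced serpin Serpina3g at 3.04 ± 0.23, Serpinb2 at 2.14 ± 0.04 and Ctsw, a cathepsin of cytotoxic lymphocytes, at 2.03 ± 0.31. Serpinf1, an inhibitor of vessel growth, was the 1 gene on the lower side and gave 2656 against 10120 and 2484 against 9990, a ratio of -1.97 ± 0.06. Over all measured genes 8.82% were called higher and 1.10% lower. Of 40 respiratory chain genes, 26 proteasome genes and 22 genes of the unfolded protein response none was called. Their medians were 0.08, -0.11 and 0.49, the last 0.05 with median centring.

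Skeletal muscle genes made up much of the lower side. Of 38 measured, 24 were lower and 1 higher, and the median of -1.81 was -3.73 with Agilent's processed log ratios. Myl1, a light chain of fast fibres, gave 144.7 against 4927 on the first array and 172.7 against 4885 on the second. Myh8, the perinatal myosin, gave 962.5 against 12880 and 633.6 against 13140 and the fast myosin Myh4 gave 875.8 against 11060 and 545.9 against 11820. For all 3 the primary was high on both arrays. The troponins Tnnt3 and Tnnc2 stood at -4.15 ± 0.05 and -3.82 ± 0.24 and Actn3, a Z-disc protein of fast fibres, at -4.12 ± 0.16. Other Myl1 and Myh4 probes gave -1.89 and -4.12. Myh7, the slow and cardiac myosin, went the other way and gave 2602 against 182.6 on the first array and 2247 against 188.3 on the second, a ratio of 3.71 ± 0.18. Cox6a2 stood at 0.27 ± 0.02. The summed signal of the list was 20604 and 19147 in the metastasis and 90201 and 91601 in the primary, so muscle RNA moved with the primary side of the comparison. Its part in the other genes that were lower was not tested. The same holds on the metastasis side for the lung epithelial, endothelial, blood and lymphocyte lists above, whose part in other genes that were higher was not tested.

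Other genes on the lower side belong to matrix. Lrrc15, a surface protein of activated fibroblasts in tumours, gave 136.9 against 1774 on the first array and 141.3 against 1928 on the second, a ratio of -3.73 ± 0.05, with its other probe at -1.25. Thbs4, a thrombospondin of tendon and muscle, stood at -3.02 ± 0.12, Thbs2 at -1.81 ± 0.11 and tenascin Tnc at -1.13 ± 0.12 (-0.62 for the mean of its probes and -0.95 with scaling between arrays, no longer called). In contrast Mgp (2.73), Dcn (2.05) and elastin Eln (1.83 ± 0.06) were higher. Over the 34 matrix genes 9 were higher and 5 lower, and over 30 collagens 2 were higher and 3 lower, with Col11a1 at -2.17 ± 0.13 and Col4a3, a chain of the alveolar basement membrane whose primary signal was above background on 1 array, at 1.89 ± 0.01. With Agilent's processed log ratios these 2 stood at -3.62 and 3.67.

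Hypoxia-induced genes were lower in 11 of 38 cases and higher in 3, with a median of -0.66 (-1.0 under median centring). Promoters of 3 of the lower genes are shown, with capitals for ACGTG, the core to which HIF binds, found on either strand in the same windows of RefSeq on GRCm38.p6. Again only windows with a match were printed, and Ndrg1, also looked up, gave none. The windows are chr7:138909457-138909756 on the minus strand for Bnip3, chr12:54203825-54204124 on the minus strand for Egln3 and chr4:43506776-43507075 on the plus strand for Car9.
Bnip3: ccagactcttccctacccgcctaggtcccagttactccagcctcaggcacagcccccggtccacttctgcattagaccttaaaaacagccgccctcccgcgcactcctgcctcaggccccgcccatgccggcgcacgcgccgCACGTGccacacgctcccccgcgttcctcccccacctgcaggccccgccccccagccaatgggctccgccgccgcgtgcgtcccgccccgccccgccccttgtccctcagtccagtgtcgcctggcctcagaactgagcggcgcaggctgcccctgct
Egln3: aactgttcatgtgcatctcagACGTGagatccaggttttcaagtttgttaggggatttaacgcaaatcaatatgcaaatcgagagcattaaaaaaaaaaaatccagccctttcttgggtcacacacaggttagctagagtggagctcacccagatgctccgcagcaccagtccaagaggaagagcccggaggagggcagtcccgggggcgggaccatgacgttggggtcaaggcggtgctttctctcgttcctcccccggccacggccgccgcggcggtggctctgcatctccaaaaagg
Car9: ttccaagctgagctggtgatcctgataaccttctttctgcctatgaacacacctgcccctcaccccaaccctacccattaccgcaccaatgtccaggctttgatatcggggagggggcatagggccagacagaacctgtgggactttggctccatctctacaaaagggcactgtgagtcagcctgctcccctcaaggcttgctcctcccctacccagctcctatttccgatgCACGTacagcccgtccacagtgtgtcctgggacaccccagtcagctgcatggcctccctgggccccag

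Bnip3 held 2 overlapping matches, on opposite strands, at -108 and -107, Egln3 held 1 at -229 and Car9 1 at -18. Of 42 windows of 31 hypoxia-induced genes, 23 (54.8%) held the core, as did 13 of 28 windows of glycolytic enzymes (46.4%). For the named genes called lower that had windows it was 40 of 168 (23.8%), and for those called higher 210 of 1254 (16.7%). Over all 32851 windows it was 6447 (19.6%).

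Bnip3, a mitophagy receptor, gave 10040 against 32860 on the first array and 8435 against 34600 on the second. Ero1a, an oxidase of the endoplasmic reticulum, gave 5810 against 29860 and 5314 against 27740 and the hormone gene Stc2 gave 900.7 against 5136 and 796.7 against 5079. Their ratios were -1.87 ± 0.23, -2.37 ± 0.02 and -2.59 ± 0.11. Mgarp stood at -2.25 ± 0.21 and adrenomedullin, Adm, at -1.52 ± 0.21. The carbonic anhydrase Car9 stood at -1.42 ± 0.03 and the oxygen sensor Egln3 at -1.25 ± 0.03. The list was not of 1 direction: Selenbp1, a selenium-binding protein that lung expresses, stood at 4.07 ± 0.23, Pfkfb4 at 2.02 ± 0.08 and Anxa1, named after its values were seen, at 1.07 ± 0.05. Of 18 glycolytic genes 3 were lower and none higher, with a median of -0.62 (-1.10 with median centring). They were the glucose transporter Slc2a1 (-1.49 ± 0.37), the enolase Eno2 (-1.17 ± 0.11) and Pfkm (-1.09 ± 0.08), the last a muscle form of phosphofructokinase. With scaling between arrays Eno2 (-0.98) and Pfkm (-0.92) were no longer called.

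Genes of amino acid supply that the factor ATF4 induces under stress formed a further lower group, 12 of 30 measured and none higher, with a median of -0.87. Slc7a3, a carrier of cationic amino acids, gave 202.4 against 2266 on the first array and 209.4 against 2134 on the second, the largest ratio of the group at -3.42 ± 0.10. Vldlr stood at -2.15 ± 0.14, Aldh1l2, a mitochondrial folate enzyme, at -2.03 ± 0.18, Cth, which makes cysteine, at -1.41 ± 0.24 and the pseudokinase Trib3 at -1.37 ± 0.34. Slc1a5 (0.13 ± 0.02) and Cebpb (0.48 ± 0.09) stood at or above 0. All of the 12 were called from probes above background in both RNAs.

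The other metastases and the gamma-irradiated primary were measured against the same unirradiated primary RNA, so their ratios share that RNA and are set side by side here. The unirradiated metastasis was taken at the same 2 weeks from mice whose primary had not been irradiated, and the carbon-group metastasis after 5 Gy of carbon ions on the primary. The share of genes called higher and lower was 10.4% and 1.69% in the unirradiated metastasis, 8.20% and 1.03% in the carbon-group metastasis and 2.23% and 1.26% in the gamma-irradiated primary. The gamma-group and unirradiated metastases shared a slide, and the carbon-group metastasis was on another slide, so slide and group cannot be told apart in the second pair. In arrays of the same orientation, 284 of 16805 genes were higher by at least 1 log2 unit in the gamma-group than in the unirradiated metastasis (1.69%) and 243 were lower (1.45%). Against the carbon-group metastasis 163 of 16195 were higher (1.01%) and 40 lower (0.247%). These are differences between single RNAs and had no replicate check.

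**Figure D4:**
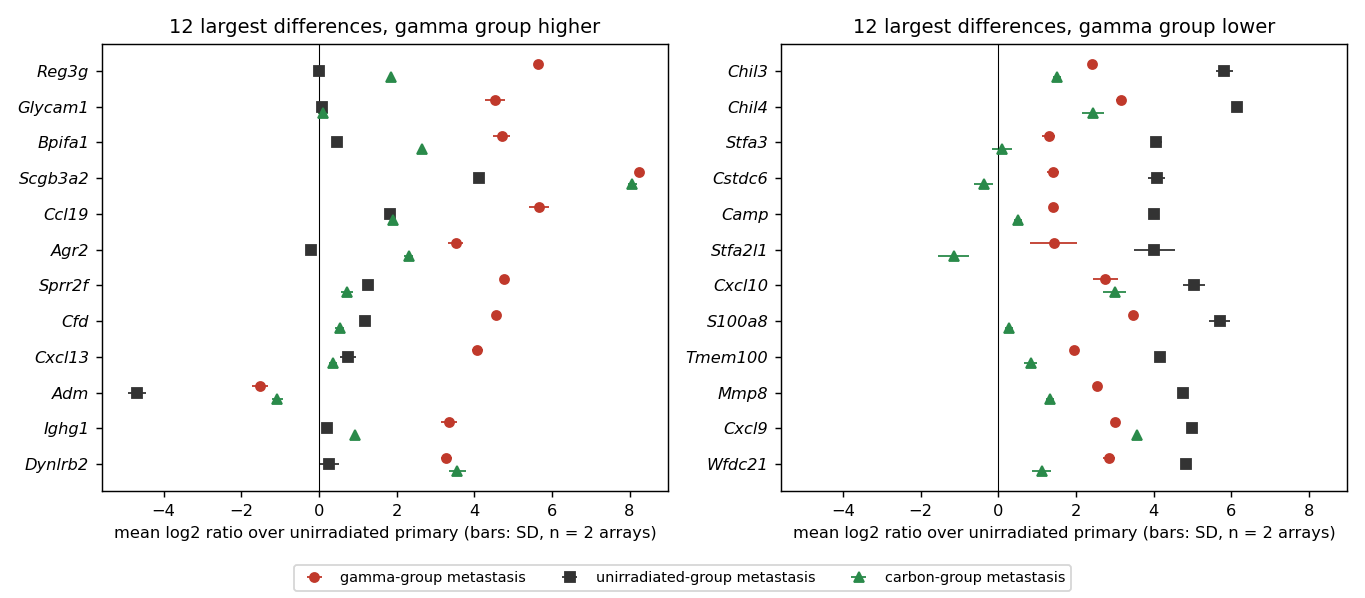
Mean log2 ratios over the unirradiated primary, with the SD over 2 arrays, for the 12 genes called in the gamma-group metastasis that most exceeded the unirradiated metastasis (left) and the 12 that most fell short of it (right), in the gamma, unirradiated and carbon groups. Reg3g, Glycam1 and Agr2 are near 0 in the unirradiated group, where their probes were not well above background, and for Chil3, Stfa3, S100a8 and the other genes on the right the unirradiated group has the highest ratio.

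Airway genes led the differences above the unirradiated metastasis. Scgb3a2 had a log2 ratio of 4.12 ± 0.04 in the unirradiated metastasis and 8.07 ± 0.11 in the carbon group, against 8.26 in the gamma group. Bpifa1, an antimicrobial protein of the upper airway, stood at 4.70, 0.47 and 2.66 in the gamma, unirradiated and carbon groups. Reg3g stood at 5.64 in the gamma group and 1.85 in the carbon group, and Agr2, a goblet cell disulphide isomerase, at 3.52 and 2.31, and neither was well above background in the unirradiated metastasis. For Dynlrb2 of cilia the ratios were 3.28, 0.26 and 3.57. Over the lists, 10 of 18 secretory genes and 10 of 18 ciliated genes measured in both were higher by 1 log2 unit in the gamma-group than in the unirradiated metastasis, and none was lower. Against the carbon group these counts were 3 of 21 and 0 of 27. Alveolar type 2 genes did not follow: 0 of 14 differed by that much from either group, and the medians were 3.46, 3.50 and 3.57 in the gamma, unirradiated and carbon groups. Over all genes 1.69% were higher and 1.45% lower than in the unirradiated metastasis. Against the carbon group the shares were 1.01% and 0.247%, so counts of 0 are near the shares over all genes.

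B cell genes and single lymphoid chemokines were higher than in both other metastases. For Ccl19 the ratios were 5.66 in the gamma group, 1.83 in the unirradiated and 1.91 in the carbon group. Cxcl13 gave 4.08, 0.75 and 0.36, and Ighg1 gave 3.35, 0.20 and 0.93 in the same order. Glycam1 was not well above background in either of the other metastases. Of B cell genes measured in both, 11 of 18 were higher by 1 log2 unit than in the unirradiated metastasis and all 14 measured in both than in the carbon group, with median differences of 1.30 and 1.84. For T cell genes these counts were 5 of 23 and 7 of 21, and none was lower. The other lymphoid lists differed less: of the genes that organise lymphoid tissue 3 of 14 were higher than in the unirradiated metastasis, with a median difference of -0.03, and 5 of 14 than in the carbon group (0.52). Of plasma cell and immunoglobulin genes 2 of 11 and 3 of 10 were higher, and of cytotoxic genes none, with 2 of 18 lower than in the unirradiated metastasis. The shares over all genes were 1.69% higher and 1.45% lower than in the unirradiated metastasis, and 1.01% and 0.247% against the carbon group. Counts of 0 in this paragraph are near these shares. The adipsin gene Cfd, a fat cell and complement gene, gave 4.55, 1.19 and 0.53, and Sprr2f, another cornified envelope gene, gave 4.77, 1.27 and 0.72. Heart muscle genes moved with these: 6 of 8 were higher by 1 log2 unit than in the unirradiated metastasis, with Tnni3 at 1.88 and 0.24, and 3 of 7 than in the carbon group. Their part in the lymphoid difference was not tested, nor was that of adipocyte genes, of which 4 of 10 were higher and 2 lower than in the unirradiated metastasis, and 5 of 9 higher and none lower than in the carbon group, with a median difference of 1.15.

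Neutrophil genes lay between the other groups, with list medians of 1.40, 3.24 and 0.28 in the gamma, unirradiated and carbon groups. Chil3, a chitinase-like lectin, stood at 2.41 in the gamma group, 5.83 ± 0.21 in the unirradiated and 1.52 ± 0.11 in the carbon group. S100a8 stood at 3.47, 5.70 and 0.28 in the same order, Mmp8 at 2.55, 4.76 and 1.32, and the stefin Stfa3 at 1.30, 4.08 and 0.09. Of 17 neutrophil genes, 12 were lower by 1 log2 unit and 1 higher than in the unirradiated metastasis, while 8 were higher and none lower than in the carbon group. The 1 gene on the higher side, Ltf, is also made by airway glands. Mesothelial genes were lower than in the unirradiated metastasis in 7 of 8 cases, with a median difference of -1.42, and 0 of 6 differed so from the carbon group (median difference 0.07). Monocyte and macrophage genes were lower than in the unirradiated metastasis in 7 of 24 cases (median difference -0.79) and alternative activation genes in 5 of 14, and none of either list differed so from the carbon group. Over all genes 1.69% were higher and 1.45% lower than in the unirradiated metastasis. Against the carbon group the shares were 1.01% and 0.247%, so counts of 0 against that group are near them. The part of the mesothelial, macrophage and alternative activation lists in the neutrophil difference was not tested.

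Interferon-inducible GTPases were higher than in the unirradiated primary in all of these RNAs, with list medians of 2.22 in the gamma group, 3.37 in the unirradiated, 2.42 in the carbon group and 2.24 in the gamma-irradiated primary. Of 17 GTPases none was higher and 9 were lower by 1 log2 unit in the gamma-group than in the unirradiated metastasis, and none differed so from the carbon group. Over all genes 1.69% were higher and 1.45% lower than in the unirradiated metastasis. Against the carbon group the shares were 1.01% and 0.247%, so the counts of 0 are near the shares. Igtp stood at 4.04 in the gamma group, 5.64 in the unirradiated, 4.24 in the carbon group and 4.77 in the gamma-irradiated primary. Iigp1 stood at 4.65, 6.11, 5.08 and 4.80, and Isg15 at 2.30, 3.09, 2.66 and 2.09, in the same order. The chemokine Cxcl9, which interferon gamma induces and which attracts T cells, stood at 3.02, 4.99, 3.57 and 4.36.

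Hypoxia-induced genes had list medians of -0.66, -1.24, -0.24 and -0.30 in the gamma-group, unirradiated and carbon-group metastases and the gamma-irradiated primary. Adm stood at -1.52 in the gamma-group metastasis, -4.70 ± 0.23 in the unirradiated, -1.07 ± 0.14 in the carbon group and -1.29 in the gamma-irradiated primary. Egln3 gave -1.25, -3.90, -1.13 and 0.09, and Bnip3 gave -1.87, -3.75, -0.69 and -0.90, in the same order. Of 38 genes, 12 were higher and 1 lower by 1 log2 unit than in the unirradiated metastasis, and 4 were lower and none higher than in the carbon group. The shares over all genes were 1.69% higher and 1.45% lower for the first pair and 1.01% and 0.247% for the second. The counts of 1 lower and 0 higher are near these shares. In the ATF4 group Slc7a3 had ratios of -3.42, -1.62, -3.57 and -3.54, where the unirradiated metastasis differed from the other 3 RNAs. The list's counts of genes lower were 12 of 30, 10 of 29, 10 of 30 and 16 of 30 for the gamma-group, unirradiated and carbon-group metastases and the gamma-irradiated primary.

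The labels of the gamma-irradiated primary differ from those of the unirradiated one in the 8 Gy alone, and it was taken at 1 week. With 1 RNA on each side, dose cannot be told apart from differences between tumours, animals or dissected tissue. Skeletal muscle genes were lower in the gamma-irradiated primary too, in 23 of 37 cases with a median of -1.55, with Myl1 at -2.65 against -4.96 in the metastasis. Lrrc15 was not lower there, at 0.30. Over all genes 2.23% were higher and 1.26% lower in that primary. No alveolar type 2 gene was called, in 8 measured, which is near those shares. Of 10 measured secretory genes 6 were higher. Among them were Cyp2f2 at 4.14 ± 0.25 and Aldh1a1 at 3.45 ± 0.33, which stood at 4.67 and 4.58 in the metastasis. Of the late squamous genes, Sprr2d stood at 3.51, Crct1 at 2.95 and Cnfn at 2.24 in that primary. All these ratios have the same unirradiated primary RNA as their denominator, so a low or high value in that 1 RNA enters each of them.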

How the data were processed

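RNA of microdissected NR-S1 tumour cells was compared on two-colour Agilent arrays (design 014868), of which 2 are described here and others of the series set beside them. The deposited scanner files give spot intensity and local background intensity for each dye, extracted with Agilent Feature Extraction 9.1.3.1 (protocol GE2-v5_91_0806), per the file headers. The same files hold the log10 ratio of Cy5 over Cy3 that Feature Extraction computed after background subtraction and dye normalization, per the file headers, and the authors' deposited table holds these log10 ratios again, with a largest difference of 0.00499.

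Here the mean signal was corrected with normexp on the median background (offset 50), control spots and flagged outliers were left out of the ratios, and each array was normalized by loess in limma 3.58.1 (R 4.3.3). Signals printed are after loess and scaling of the channels' averages to a common distribution (Aquantile). Spots of a probe were averaged, and the brightest probe stood for a gene. Of 41174 probes, 22944 were named through RefSeq accessions, 6664 through current symbols, 3108 through older symbols and 8458 by the name in the file. The dye swap is 1 replicate, so nothing was tested. The call rule was also run on simulated data with equal noise for all probes, scored on bright probes alone. That run says nothing of dim probes or of dye error in single genes.

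Members and the 72 gene lists were chosen with earlier results of these data known. Genes named were taken from the 20 at each end, up to 6 called members of each list with the 2 members nearest 0 or of opposite sign, any member of lists with at most 12 measured, the 12 in each direction that differed most from the unirradiated metastasis, and those said to be named after their values were seen. Promoter windows are RefSeq's. Alternatives changed the background correction, the normalization, the filter on dim probes, the choice of probe, the threshold and the array used. Ratios understate differences of dim probes, since the offset pulls them towards 0.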

Additional observations from a re-analysis of the deposited data

How the results depend on the processing

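With 1 RNA on each side, no setting gives a test, and these limits concern size. Agilent's processed log ratios gave 2595 genes higher and 783 lower, against 1558 and 195 in the report, and the authors' deposited table of the same ratios gave 2593 and 776. Without the offset of 50 the counts were 2292 and 374. A threshold of 1.5 on the log2 scale gave 863 and 83, and one of 0.58 gave 2775 and 681. Median centring (1051 and 143), scaling between arrays (1254 and 139), no background subtraction (1639 and 217), both RNAs above background (1317 and 174), either array alone (1894 and 273, 1713 and 289) and the mean of a gene's probes (1408 and 186) stayed within 1.5 times of the counts in the report. Of 315 named genes called in the report, 262 were still called under median centring, 293 under scaling between arrays, 297 for the mean of probes and 312 with Agilent's ratios, and 0 changed sign under any of the settings of normalization, background or probe. Signal over background limits the dim genes: 150 genes called higher had no primary signal well above background. No paired analysis was possible because each side is 1 RNA.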
